A study of Arabidopsis thaliana with 3 samples.

Results

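The genes described here are 37 core cell cycle genes of Arabidopsis thaliana, of 26017 loci with at least 1 spot on the arrays. They are the A-, B- and D-type cyclins, the cyclin-dependent kinase CDKA;1, the CDKB kinases and the inhibitors KRP1 to KRP3. They were chosen by locus code, from the first 9 characters of the TAIR code in the deposited files, and the rule itself uses no measured value, although the list was drawn up with earlier results of these data known. The list holds 10 A-type cyclins, 9 B-type cyclins, 10 D-type cyclins, 1 CDKA, 4 CDKB and 3 KRP genes, and all 37 were found.

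The study compared rosette leaves of wild type and of a transgenic line named AhNF-YC-OE, both of the Col-0 ecotype and 5 weeks old. It used 3 two-colour arrays, 1 for each state. The states were normal growth, water stress that had lasted 5 days, and recovery, sampled 24 h after plants stressed for 8 days were watered again. Wild type RNA carried the Cy3 label and AhNF-YC-OE RNA the Cy5 label on each array, and no array had the dyes exchanged. The sources used here do not give the promoter of the transgene, the number of lines, the number of plants behind each RNA or the meaning of the prefix Ah. The stress before the recovery array was thus longer than that of the water stress array, and both genotypes on a given array had the same watering.

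Cyclins are the regulatory partners that switch cyclin-dependent kinases on at set points of the cell cycle. In plants, D-type cyclins with CDKA act at entry into the cycle, through phosphorylation of the retinoblastoma protein RBR1 and release of E2F factors. A-type cyclins act from S phase onward, B-type cyclins with the plant-specific CDKB kinases act around mitosis, and KRP proteins bind cyclin-kinase complexes and block them. In a leaf these genes are known for setting how many cells form and when cells leave division for enlargement with repeated DNA replication. NF-YC is a subunit of NF-Y, a trimeric transcription factor that binds CCAAT sequences.

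Gene names below come from the annotation of the array spots, and several measurements of the spots go against that annotation. The channel medians of 29234 gene spots lay between 812.2 and 4208 scanner units. Of 510 spots annotated as empty, 86.7% to 92.5% lay above their local background. Across 1464 pairs of spots annotated to the same transcript, levels correlated at 0.055 to 0.077 and ratios at 0.104 to 0.193, over spots of 1 array that share its background and scan. Spots of 10 leaf marker genes had a median brightness at percentile 50.9 to 55.1 of all genes, with 1 of them at percentile 10.3 under normal growth. The 4 shoot meristem markers lay at a median percentile of 71.8 to 87.0, the 5 flower markers at 55.7 to 61.3 and the 3 root tip markers at 28.0 to 39.4. The leaf markers thus ranked above those of the root tip and below those of the shoot meristem and flower on the 3 arrays, and these values do not show which transcript a spot carries. In leaf RNA, fewer dividing cells and less transcript per dividing cell cannot be told apart.

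Each ratio below sets the transgenic line over wild type within 1 array on the log2 scale, so a value of 1 in size is 2-fold and a negative value is lower in the transgenic line. Levels are normalized log2 intensities of one channel, given in the order normal growth, water stress and recovery. With 1 array per state the ratio of a single state has no replicate and no test, and a dye bias of a spot cannot be told apart from a genotype difference. The technical spread between the spots of 11 control features (144 spots) gives the only error of these values. Its pooled SD was 0.126, 0.153 and 0.146 for the ratio on the 3 arrays. For the change between arrays within a genotype it was 0.507 to 0.703, and that change cannot be told apart from a difference between arrays. The control features had median brightness at percentiles 20.5 to 98.0 under normal growth. On the water stress and recovery arrays this was 18.4 to 86.5 and 17.7 to 88.4. The technical spread need not hold for genes outside these ranges.

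All 37 spots or spot means lay above local background in both channels of the 3 arrays. Under normal growth, 23 of the 37 (62.2%) were dimmer in both channels than the level that 95% of empty spots stay below, against 52.1% of all genes. Under water stress 8 were (21.6%, against 14.1%), and in recovery 5 were (13.5%, against 12.4%).

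**Figure D1:**
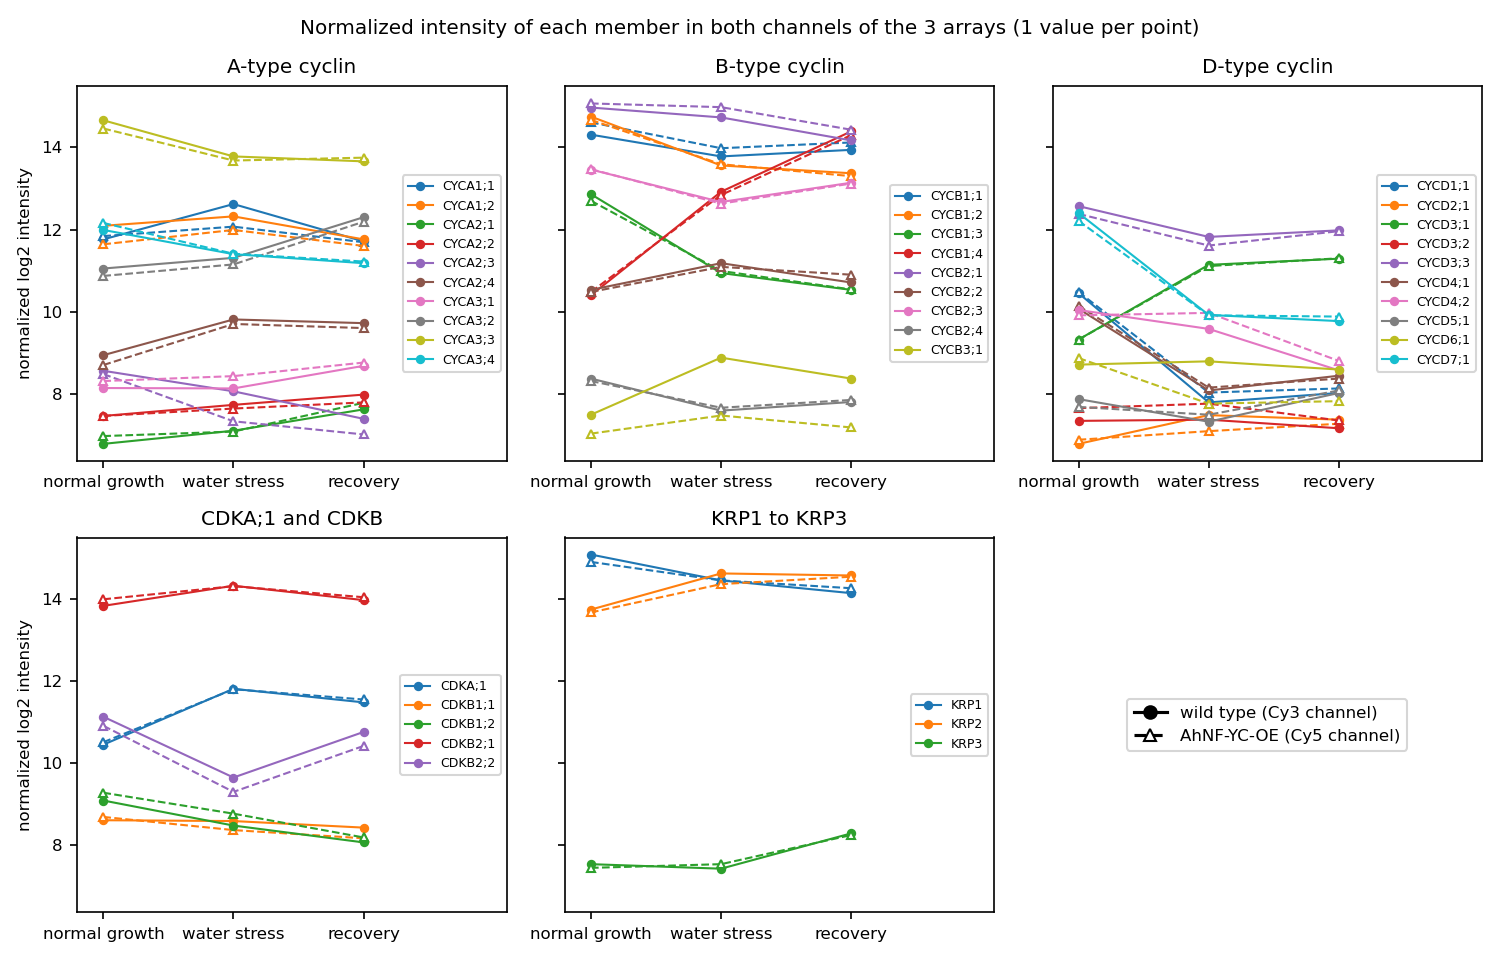
Normalized log2 intensity (vertical axis) of each of the 37 genes on the 3 arrays (horizontal axis), in panels by class. Filled circles with solid lines are wild type, open triangles with dashed lines are AhNF-YC-OE, and each point is 1 array. The lines of the 2 genotypes run close together for nearly all genes, and CYCB3;1 and CYCD6;1 part most clearly under water stress and in recovery.

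Between the genotypes the cell cycle genes differed little. Under normal growth all 37 lay within 1.5-fold of equal, against 98.3% of all genes. None reached 2-fold in either direction, where 0.0923% of all genes were that much higher in AhNF-YC-OE and 0.00769% that much lower. Under water stress 34 (91.9%) lay within 1.5-fold, against 94.7%. A pair, CYCB3;1 and CYCD6;1, was at least 2-fold lower (5.41% of the list, against 0.334% of all genes), and none was higher (0.5% of all genes). In recovery 35 (94.6%) lay within 1.5-fold, against 97.9%. There CYCB3;1 was at least 2-fold lower (2.7%, against 0.385%) and none was higher (0.0538%). These shares rest on 1 or 2 genes with 1 spot each.

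With the main processing the list as a whole was not clearly shifted to one side. Its median ratio was then -0.0048, -0.016 and 0.011 in the order of the arrays, beside -0.0065, 0.0027 and -0.00053 for all genes. Under water stress the size of this median depended on the processing. Median centring gave -0.25, beside 0.015 for all genes. Loess within print-tip blocks gave -0.087, beside 0.00047. The median from the authors' normalized intensities was -0.072, beside 0.0084. In recovery that source gave 0.035, beside 0.0050, and median centring gave -0.067, beside 0.012. The counts that follow are from the main processing. Negative ratios were found for 20, 23 and 18 of the 37, where 51.5%, 49.6% and 50.1% of all genes were negative. Ratios were positive on all 3 arrays for 7 genes (18.9%, against 23.2% of all genes) and negative on all 3 for 9 (24.3%, against 24.3%). Both shares lie near those of all genes.

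Taken as 3 repeats of the genotype comparison, whatever the state, the arrays allow a test of the mean ratio with limma, a fit added after the data were seen. None of the 37 had an adjusted p under 0.05, in either direction. Of all genes 0.00385% did so as lower and 0% as higher. At an unadjusted p under 0.05 there were 9 of the 37 (24.3%), against 21.7% of all genes, so the list lay near the background. CYCB3;1 had the lowest mean, -1.02 with an SE of 0.17 (limma adjusted p = 0.152), and was below 0 on all 3 arrays. CYCD6;1 had a mean of -0.55 with an SE of 0.21 (limma adjusted p = 0.206) and was below 0 on 2 of them. Without the recovery array CYCB3;1 was called lower (0.154% of all genes were), and without either of the other arrays no member was. This fit tests 1 effect shared by the 3 states and not the ratio of any single state, and a dye bias would enter its mean.

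**Figure D2:**
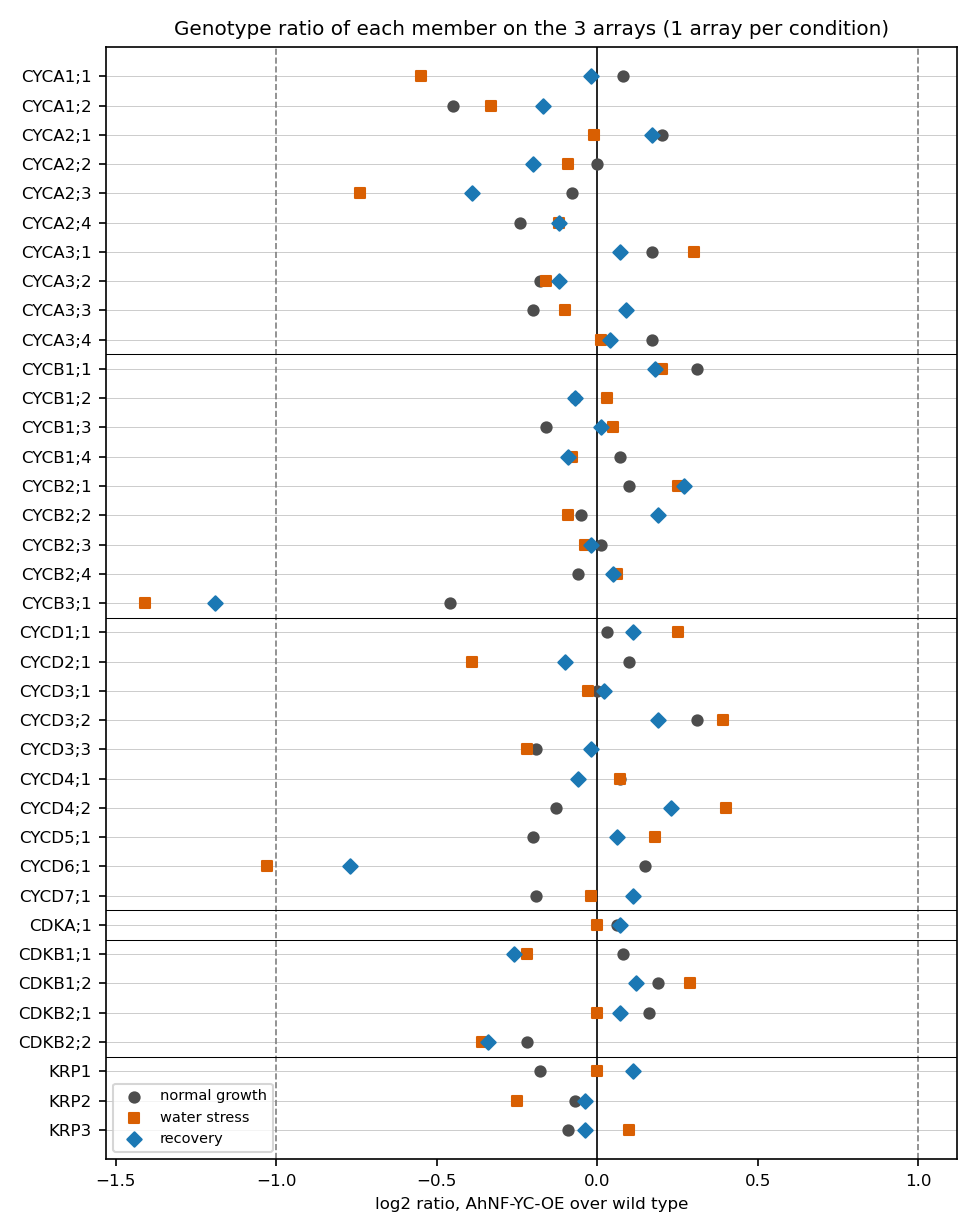
Genotype ratio on the log2 scale, transgenic line over wild type (horizontal axis) for each of the 37 genes (vertical axis, by class), with 1 mark per array. Dashed lines mark 2-fold. Marks left of the lower line belong to CYCB3;1 under water stress and in recovery (-1.41 and -1.19) and to CYCD6;1 under water stress (-1.03).

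Among the A-type cyclins, the A1 genes act in mitosis and meiosis, the A2 genes hold cells in division and delay endoreduplication, and the A3 genes are expressed around S phase. None of the 10 was 2-fold apart between the genotypes on an array. The median of the class was -0.041, -0.11 and -0.070. Under water stress 8 of the 10 (80.0%) were negative, against 49.6% of all genes. Most of the 10 are on chromosome 1, where 59.5% of all genes were negative on that array. The lowest was CYCA2;3 (AT1G15570, chromosome 1), known for restraining endoreduplication in leaves. Its wild type levels were 8.56, 8.06 and 7.39 and its AhNF-YC-OE levels 8.48, 7.33 and 7.01. The genotypes were near each other under normal growth and parted on the later arrays, with ratios of -0.08, -0.74 and -0.39. The 19 gene spots around it on the slide had a median ratio of -0.18, -0.31 and -0.27. With the authors' normalized values the ratio was 0.02, -0.30 and 0.12, so neither its size nor its recovery sign was the same there.

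The A1 pair differed in where the genotypes parted. CYCA1;1 (chromosome 1) stood at 11.76, 12.62 and 11.71 in wild type, against 11.84, 12.07 and 11.69 in the transgenic line, so the ratio was -0.55 under water stress and at most 0.08 in size on the other arrays. The 24 gene spots around it had a median of -0.23 under water stress, with 22 of them below 0. Its ratio there was -0.32 with that median subtracted and -0.26 with median centring. CYCA1;2 (chromosome 1), known as TAM for its part in the timing of meiosis, stood at 12.09, 12.32 and 11.76 in wild type, against 11.64, 11.99 and 11.60 in the transgenic line. It was lower in AhNF-YC-OE throughout, at -0.45, -0.33 and -0.17, and no ratio of the 10 A-type genes was lower than this under normal growth. Most of the 24 gene spots around it were also below 0, with medians of -0.19, -0.24 and -0.28. With these subtracted the ratios were -0.27, -0.09 and 0.11, and the authors' values gave -0.31, -0.09 and 0.03, so the recovery sign was not the same there.

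The rest of the A2 genes were near equal between genotypes. The ratios of CYCA2;1 and CYCA2;2 (both chromosome 5) lay between -0.20 and 0.20, with levels from 6.78 to 7.98. CYCA2;4 (chromosome 1) was slightly lower in AhNF-YC-OE on each array, at -0.24, -0.12 and -0.12. Its level was higher under water stress than under normal growth, by 0.87 in wild type and 1.00 in the transgenic line, the second just short of 2-fold before rounding. With median scaling between arrays, under which the median change of all genes was 0.88 in wild type and 0.89 in the transgenic line, these changes were 1.22 and 1.35.

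The A3 genes include a run of 3 neighbours in locus order on chromosome 1. CYCA3;2 (AT1G47210), expressed at G1 to S, had levels of 11.05, 11.31 and 12.30 in wild type, against 10.87, 11.15 and 12.19 in the transgenic line. Recovery was its high point in both genotypes, with a change from water stress of 0.99 and 1.04, on either side of 2-fold. CYCA3;3 (AT1G47220) stood at 14.66 in wild type and 14.46 in the transgenic line under normal growth and changed by -0.88 and -0.77 under water stress. With median scaling that change was 0.27 and 0.38, and in the authors' values 0.20 and 0.25, so its direction depends on the scaling. CYCA3;4 (AT1G47230), which acts in formative divisions, had 3 spots for 2 annotated transcripts. Scanner values of its spots in wild type under normal growth were 3030, 22000 and 4965, so the spots disagreed in level, while their ratios there were 0.23, 0.11 and 0.38. CYCA3;1 (chromosome 5) was slightly higher in AhNF-YC-OE on the 3 arrays, at 0.17, 0.30 and 0.07.

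The B-type cyclins drive entry into and passage through mitosis. The class held 1 gene that was 2-fold apart between the genotypes, CYCB3;1, known from spindle and cell wall formation in meiosis. Its locus is AT1G16330 on chromosome 1, and it has 1 spot. Its wild type levels were 7.49, 8.88 and 8.37, and its AhNF-YC-OE levels were 7.03, 7.47 and 7.18. Wild type was above AhNF-YC-OE on each array, and the wild type values of the later arrays were above all 3 AhNF-YC-OE values. The ratios were -0.46, -1.41 and -1.19, of which the last pair were past 2-fold. The technical SD was at most 0.153, but it need not hold for a spot this dim. The spot lay at percentile 5.4, 18.4 and 12.1 in brightness, near or below the dimmest control feature on each array.

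The scanner values behind this ratio were low in AhNF-YC-OE. In wild type the spot read 222.5, 708.3 and 376.1, over local backgrounds of 54.57, 59.0 and 59.77. In AhNF-YC-OE it read 124.2, 85.87 and 83.38, over backgrounds of 66.75, 57.06 and 60.64. The level that 95% of empty spots stay below was 5681, 396.6 and 266.5 in wild type, against 4418, 222.2 and 151.6 in the transgenic line. The wild type spot was thus above that level under water stress and in recovery, and the AhNF-YC-OE spot was below it on all 3 arrays. All 19 gene spots around it also had negative ratios under water stress and in recovery, with medians of -0.29 and -0.21, and none of them was as low as the cyclin spot. With the median of the neighbouring spots subtracted, an alternative chosen after the data were seen, the ratios were -0.24, -1.12 and -0.98. Loess within print-tip blocks gave -0.33, -1.03 and -0.86, so the recovery value was then short of 2-fold. The authors' normalized values gave -0.53, -1.32 and -1.18, and median centring without loess -0.44, -2.32 and -1.62. The part of the place on the slide in this ratio was not tested.

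**Figure D3:**
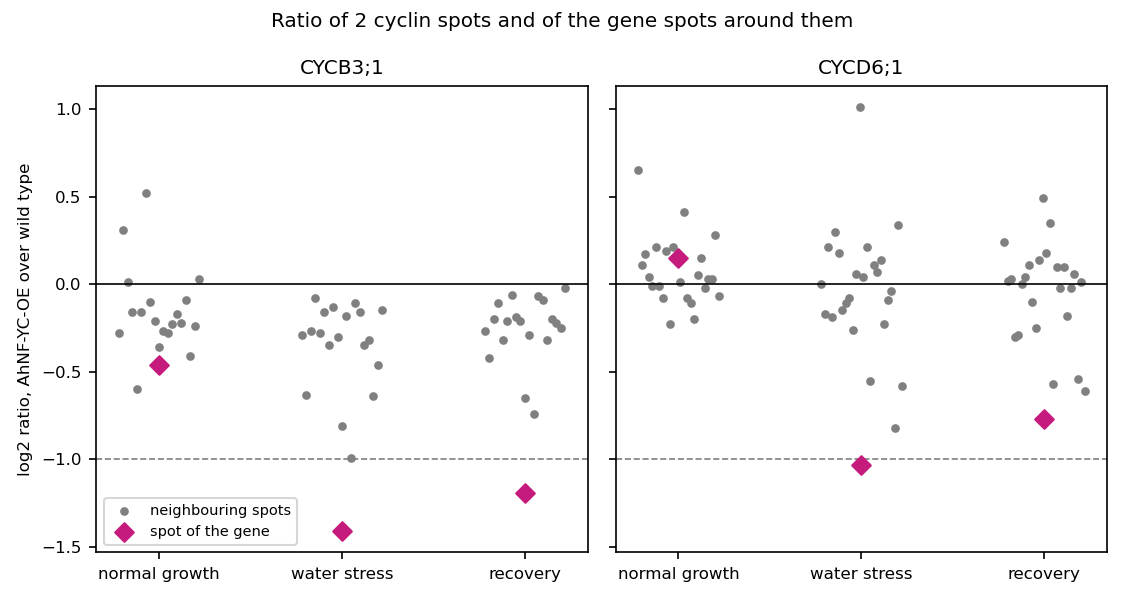
Genotype ratio on the log2 scale, transgenic line over wild type (vertical axis) of the spots annotated to CYCB3;1 and CYCD6;1 (diamonds) and of the gene spots within 2 rows and columns of each (grey points), on the 3 arrays (horizontal axis). The 19 neighbours of CYCB3;1 are all below 0 under water stress and in recovery, those of CYCD6;1 lie on both sides of 0, and both cyclin spots are lower than every neighbour on these arrays. Points are spread sideways so that they can be told apart.

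Chromosome 1 spots had low ratios as a group. Among all genes, 0.983% of chromosome 1 genes were 2-fold or more below wild type under water stress, against 0.109% on the other chromosomes, and 1.1% against 0.135% in recovery. Of the 13 cell cycle genes on chromosome 1, 8, 10 and 8 had a negative ratio in the order of the arrays. Of the other 24, 12, 13 and 10 did. For all chromosome 1 genes the share below 0 was 59.5%, 59.5% and 57.3%. For all genes of the other chromosomes it was 48.8%, 46.2% and 47.6%. The cell cycle spots of chromosome 1 all lay in earlier rows of their print-tip blocks than those of the other chromosomes. Chromosome and place on the slide thus cannot be told apart for these spots, and the part of either in the ratios was not tested.

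The other 8 B-type cyclins lay between -0.16 and 0.31 in genotype ratio on the 3 arrays. CYC1, the name in the files for cyclin B1;1, whose promoter is the common marker of G2 to M cells, stood at 14.31, 13.78 and 13.94 in wild type, against 14.61, 13.98 and 14.12 in the transgenic line. AhNF-YC-OE was above wild type on the 3 arrays, with ratios of 0.31, 0.20 and 0.18, of which the normal growth value was -0.07 in the authors' values. CYCB2;1 (chromosome 2), also higher in AhNF-YC-OE on each array, had ratios of 0.10, 0.25 and 0.27. Its ratio grew to 0.71, 1.29 and 0.75 with median centring, and was -0.04, 0.10 and 0.14 in the authors' values.

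**Figure D4:**
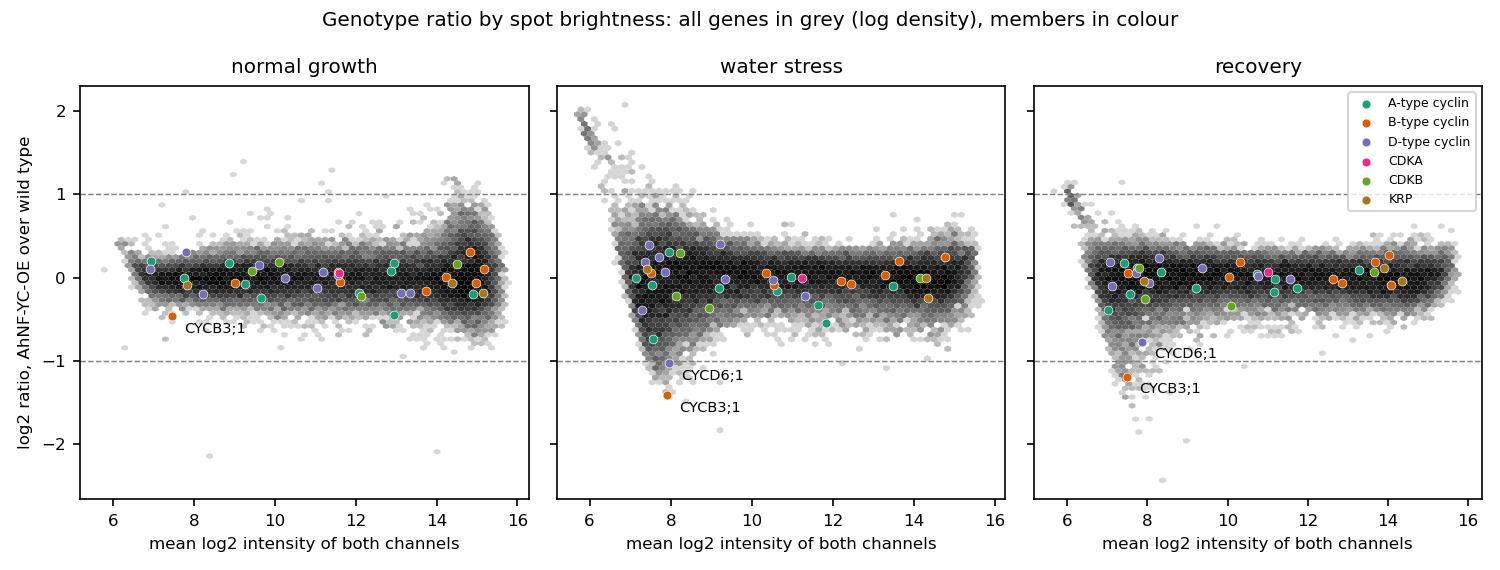
Genotype ratio on the log2 scale, transgenic line over wild type (vertical axis) against the mean log2 intensity of both channels (horizontal axis) on the 3 arrays, with all genes as grey density on a log scale and the 37 genes in colour by class. Dashed lines mark 2-fold. The 2 cell cycle genes below the lower line are in the dim part of the water stress array, and the CYCB3;1 spot is below it in recovery too.

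Across arrays the B-type cyclins moved apart in both directions. CYCB1;4 (AT2G26760, chromosome 2), a mitotic cyclin, had the largest upward change of the 37 genes in both genotypes in this scaling and with median scaling, though not in the authors' values. Its levels were 10.40, 12.92 and 14.39 in wild type, against 10.48, 12.84 and 14.30 in the transgenic line, so each later array was above the one before and the genotypes did not part. The changes were 2.52 and 2.36 from normal growth to water stress and 1.47 and 1.46 from there to recovery, each over 2 technical SDs. Under normal growth its spot was dimmer than 95% of empty spots in both channels, so the first change starts below that level. CYC2, cyclin B1;3 (AT3G11520), went down, from 12.86 to 10.94 and 10.53 in wild type, and from 12.70 to 10.99 and 10.54 in the transgenic line. Its changes under water stress were -1.92 and -1.71. CYC1BAT, cyclin B1;2 (AT5G06150), was also more than 2-fold lower under water stress, by -1.19 and -1.09. It was -0.01 and 0.09 after median scaling, so its direction depends on how arrays are scaled.

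The B2 genes stayed within 2-fold between arrays in this scaling. With median scaling CYCB2;1 was higher under water stress by 1.25 and 1.40, and in the authors' values by 1.01 and 1.15. CYCB2;2 (chromosome 4) was higher under water stress by 0.65 in wild type and 0.61 in the transgenic line, while CYCB2;3 and CYCB2;4 (both chromosome 1) changed by -0.65 to -0.84. The change of CYCB2;4 was 0.17 and 0.30 with median scaling, so its direction depends on the scaling. CYCB3;1 was 1.40 higher under water stress in wild type and 0.44 higher in AhNF-YC-OE, a gap that restates its ratios on those arrays. These changes were 2.67 and 1.71 with median scaling and 3.47 and 2.67 in the authors' values.

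The D-type cyclins link growth and hormone signals to entry into the cycle. Their median ratio was 0.014, 0.029 and 0.035, and 1 of the 10 was 2-fold apart. That gene was CYCD6;1 (AT4G03270, chromosome 4), known in the root for the division that separates cortex and endodermis. Its wild type levels were 8.71, 8.79 and 8.59, and its AhNF-YC-OE levels were 8.87, 7.76 and 7.82. Wild type kept nearly 1 level on the 3 arrays, and AhNF-YC-OE was below it on the later arrays and slightly above it under normal growth. The ratios were 0.15, -1.03 and -0.77. Which genotype changed under water stress depends on the scaling: wild type changed by 0.08 and AhNF-YC-OE by -1.10 here, by 0.69 and -0.49 with median scaling, and by 1.02 and -0.21 in the authors' values.

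The ratio thus fell by 1.18 on the log2 scale between the normal growth and the water stress array. This was the 1 member of 37 (2.7%) with a difference of ratios of at least 2-fold downward, against 0.35% of all genes, and none was upward (0.45%). Between recovery and normal growth no member reached 2-fold, where 0.304% of all genes were lower and 0.0269% higher. The difference for CYCD6;1 was then -0.92, and that for CYCB3;1 was -0.95 under water stress and -0.73 in recovery. Pooled technical SDs of these differences were 0.149 and 0.157, which need not hold for a spot as dim as that of CYCB3;1.

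The scanner values of the CYCD6;1 spot were 866.5, 635.0 and 411.1 in wild type, against 683.8, 99.87 and 128.4 in the transgenic line. The AhNF-YC-OE values of the later arrays stood over local backgrounds of 53.86 and 59.78 and were below the level that 95% of empty spots stay below. The 24 gene spots around it had medians of 0.04, -0.02 and 0.02, and under water stress 13 of them were below 0. None was as low as the cyclin spot under water stress or in recovery, and with the neighbours' median subtracted the ratios were 0.12, -1.0 and -0.79. Unlike the surroundings of the B-type gene above, these were centred near 0. Loess within print-tip blocks gave 0.07, -0.86 and -0.55, short of 2-fold, and the authors' values gave 0.07, -1.15 and -0.65.

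No other D-type cyclin was past 1.5-fold between genotypes. CYCD4;2 (AT5G10440), of a pair that acts in early divisions of the stomatal lineage, had the highest ratio of the 37 under water stress, 0.40, with -0.13 before and 0.23 after. CYCD3;2 (chromosome 5), of the D3 group that keeps leaf cells dividing, was higher in AhNF-YC-OE on the 3 arrays at 0.31, 0.39 and 0.19, from a spot equally below that limit on the 3 arrays. The authors' values gave 0.38, 0.38 and 0.72, and median centring 0.28, -0.66 and -0.28, which turns the later signs. CYCD2;1 (chromosome 2), the sugar-linked D cyclin, stood at 0.10, -0.39 and -0.10 from a spot dimmer than 95% of empty spots on the 3 arrays, with -0.02 under water stress and 0.65 in recovery in the authors' values. CYCD5;1 (chromosome 4) stood at -0.20, 0.18 and 0.06. CYCD3;3 (AT3G50070) had ratios of -0.19, -0.22 and -0.02. Its value is the mean of a pair of spots with wild type scanner values of 3085 and 32940 under normal growth. In recovery the pair differed in sign, at 0.21 and -0.26, and the TIGR code of the dimmer one names another locus.

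From normal growth to water stress the D-type class held the 3 lowest changes of the list in this scaling. CYCD1;1 (AT1G70210, chromosome 1), which acts in early germination, stood at 10.45, 7.79 and 8.02 in wild type, against 10.48, 8.03 and 8.13 in the transgenic line. Under water stress its level changed by -2.66 and -2.44. Its spot was among those dimmer than 95% of empty spots under both normal growth and water stress. CYCD7, cyclin D7;1 (AT5G02110), which acts in the last division of the stomatal lineage, stood at 12.40, 9.92 and 9.77 in wild type, against 12.21, 9.91 and 9.88 in the transgenic line. Its changes were -2.47 and -2.30. CYCD4;1 (AT5G65420), the other gene of the D4 pair, went from 10.07 to 8.08 and 8.44 in wild type, and from 10.14 to 8.15 and 8.37 in the transgenic line, a change of -1.99 in both. Its normal growth spot was dimmer than 95% of empty spots too. These 3 genes had normal growth as their high point in both genotypes and did not return to it in recovery.

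One D-type gene was more than 2-fold higher under water stress in this scaling. CYCD3, the name in the files for cyclin D3;1 (AT4G34160), is the cytokinin-responsive D cyclin that keeps leaf cells in division. It stood at 9.32, 11.14 and 11.29 in wild type, against 9.32, 11.11 and 11.30 in the transgenic line, so the genotypes were equal to within 0.03 on each array. The changes under water stress were 1.81 and 1.79, with 0.15 and 0.20 more in recovery. Under normal growth its spot was dimmer than 95% of empty spots in both channels. Of the other D3 genes, D3;2 changed by 0.04 and 0.11, and D3;3 by -0.75 and -0.77. Both depend on the scaling: with median scaling D3;2 changed by 1.38 and 1.45 and D3;3 by -0.06 and -0.09, and in the authors' values D3;2 changed by 2.05 in both genotypes. CYCD4;2 changed by -1.0 and -1.17 from water stress to recovery, and the wild type value was -0.93 after median scaling.

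CDKA;1 (AT3G48750, chromosome 3) is the kinase that works at both G1 to S and G2 to M, and yeast cells that lack their own such kinase can live on it. Its wild type levels were 10.45, 11.81 and 11.48 and its AhNF-YC-OE levels 10.51, 11.80 and 11.55. The genotypes were within 0.07 of each other on each array. Both were above 2-fold higher under water stress, by 1.36 and 1.30, and slightly lower again in recovery, with changes of -0.33 and -0.26. Under normal growth the spot was dimmer than 95% of empty spots in both channels.

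The CDKB genes, whose transcripts peak at G2 to M in dividing plant cells, lay between -0.36 and 0.29 in genotype ratio. CDKB2;2 (AT1G20930, chromosome 1), of the B2 pair that acts in shoot meristem organization, had the widest swing between arrays. It stood at 11.13, 9.65 and 10.76 in wild type, against 10.91, 9.30 and 10.42 in the transgenic line, so water stress was its low point in both. The changes were -1.48 and -1.61 under water stress and 1.11 and 1.12 in recovery, and the genotype ratio was -0.22, -0.36 and -0.34. Under normal growth its spot was dimmer than 95% of empty spots in both channels. The spots around it had medians of -0.19, -0.42 and -0.44, and with these subtracted the ratios were -0.03, 0.06 and 0.09.

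Its partner CDKB2;1 (AT1G76540, chromosome 1) did not follow it, with levels of 13.83 to 14.32 in both genotypes and changes of 0.49 and 0.32 under water stress, which were 1.46 and 1.30 with median scaling. CDC2B, the B1;1 kinase of the stomatal lineage (chromosome 3), stood between 8.17 and 8.69 on all arrays, with ratios of 0.08, -0.22 and -0.26. CDKB1;2 (chromosome 2) was higher in AhNF-YC-OE on each array, at 0.19, 0.29 and 0.12, and its levels went down from 9.09 to 8.07 in wild type, and from 9.28 to 8.19 in the transgenic line.

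The KRP inhibitors were within 1.5-fold between the genotypes on the 3 arrays. KRP1 (AT2G23430), an inhibitor that limits growth when it is abundant, stood at 15.08, 14.45 and 14.14 in wild type, against 14.90, 14.45 and 14.26 in the transgenic line, with ratios of -0.18, near 0 and 0.11. KRP2 (AT3G50630), known for holding back lateral root founder cells, stood at 13.74, 14.62 and 14.57 in wild type, against 13.67, 14.36 and 14.54 in the transgenic line. It was 0.88 and 0.69 higher under water stress, below 2-fold, and slightly lower in AhNF-YC-OE throughout at -0.07, -0.25 and -0.04. KRP3 (AT5G48820) had its high point in recovery in this scaling, at 8.29 and 8.25 after 7.43 and 7.54 under water stress. That change was 0.46 and 0.32 with median scaling and 0.11 and -0.03 in the authors' values. Its spot was dimmer than 95% of empty spots under normal growth and water stress. Direction under water stress depends on the scaling for KRP1, and for KRP3 in wild type. KRP1 changed by -0.63 and -0.45 and KRP3 by -0.10 and 0.08 here. With median scaling all 3 were higher, KRP1 by 0.80 and 0.97, KRP2 by 1.79 and 1.61 and KRP3 by 1.26 and 1.45, beside the 0.88 and 0.89 of all genes.

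In wild type, 4 of the 37 genes (10.8%) were at least 2-fold higher under water stress than under normal growth, against 15.4% of all genes, and 6 (16.2%) were at least 2-fold lower, against 15.0%. In AhNF-YC-OE 3 (8.11%, against 12.8%) were higher and 8 (21.6%, against 13.0%) were lower. In both genotypes at once, 3 were higher (8.11%, against 11.4%) and 6 lower (16.2%, against 11.6%). The genes past 2-fold in 1 genotype alone were CYCB3;1 in wild type, at 1.40, and CYCA2;3 and CYCD6;1 in AhNF-YC-OE, at -1.16 and -1.10. Whether the genotypes differ in these changes was not tested. With median scaling and in the authors' values CYCB3;1 was past 2-fold in both genotypes, and neither of the other genes was past 2-fold downward. The medians were -0.10 in wild type and -0.09 in the transgenic line, beside 0.08 and 0.05 for all genes.

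From water stress to recovery few genes of the list changed 2-fold. In wild type 2 (5.41%, against 3.91% of all genes) were higher and 1 (2.7%, against 3.99%) was lower. In AhNF-YC-OE 3 (8.11%, against 3.07%) were higher and 1 (2.7%, against 3.64%) was lower. In both genotypes 2 were higher, CYCB1;4 and CDKB2;2 (5.41%, against 2.54%), and 1 was lower, CYCD4;2 (2.7%, against 3.07%). The medians were -0.12 and 0.06, beside 0.01 and 0.00 for all genes. The 2 genotypes of an array share its hybridization, so a like change in both is not a repeat.

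**Figure D5:**
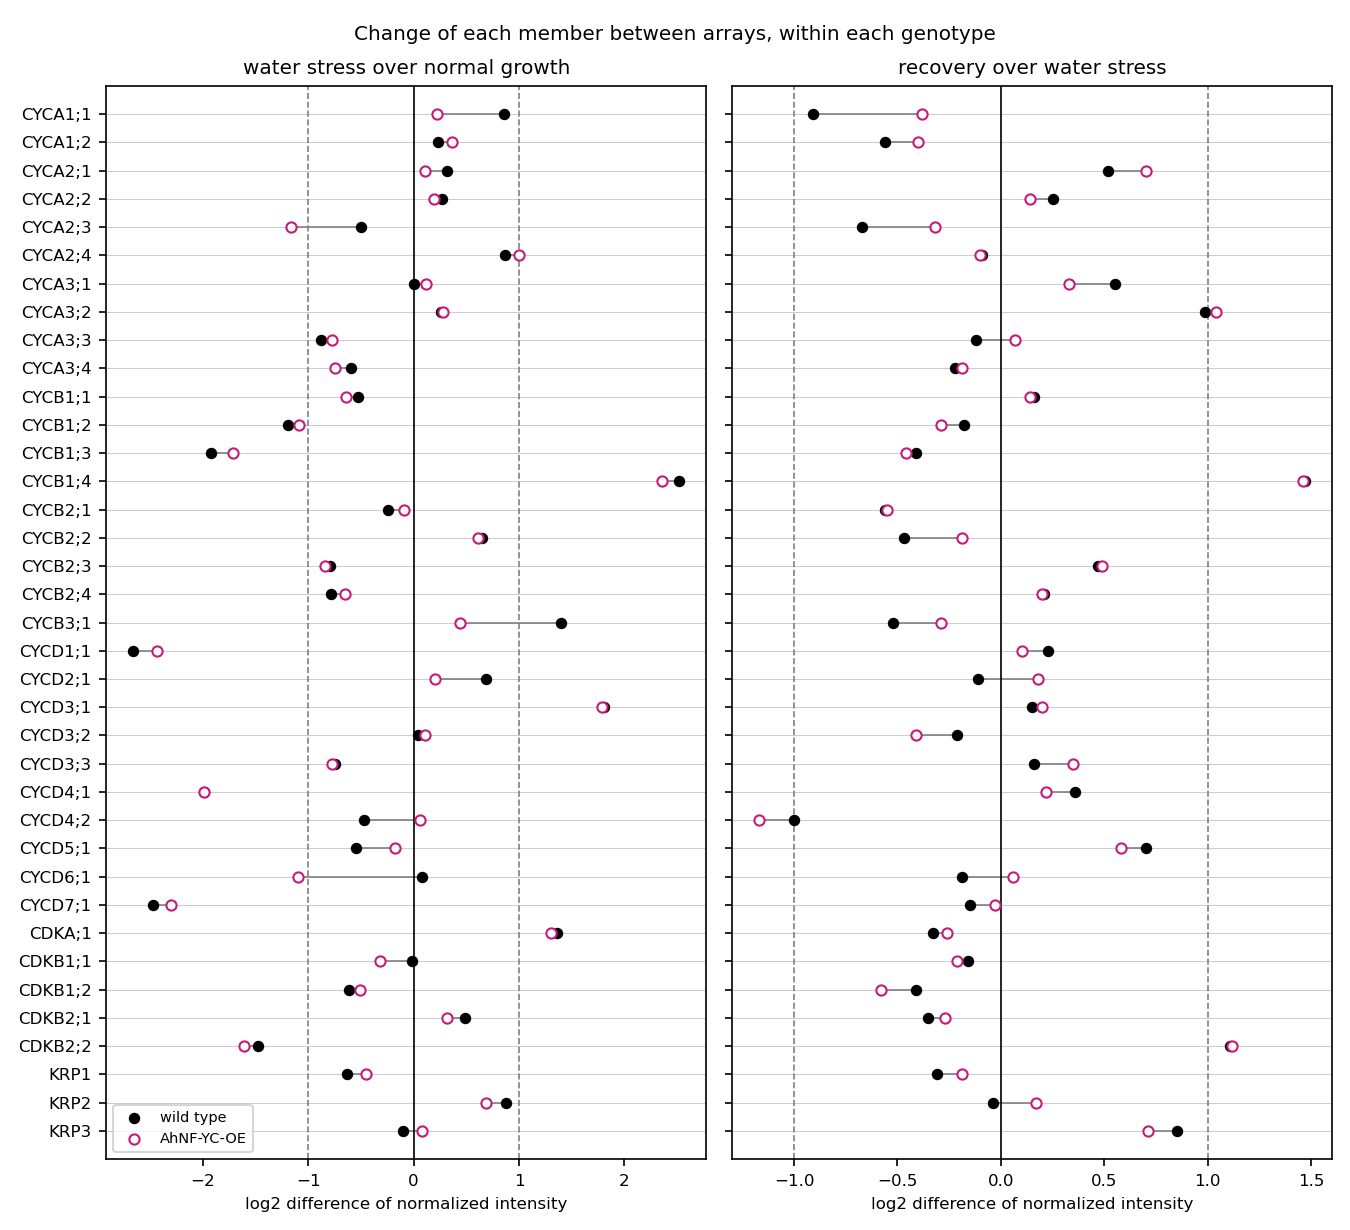
Log2 difference of normalized intensity (horizontal axis) of each of the 37 genes (vertical axis), water stress minus normal growth on the left and recovery minus water stress on the right, for wild type (filled) and AhNF-YC-OE (open), each from 1 pair of arrays. Dashed lines mark 2-fold. CYCB1;4 lies furthest right in both panels (2.52 and 1.47 in wild type), and CYCD1;1 furthest left in the water stress panel (-2.66 in wild type).

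These changes assume that the mean log2 intensity of both channels has the same distribution on the 3 arrays. With median scaling in place of this, the median of all genes moved to 0.88 in wild type and 0.89 in the transgenic line for water stress over normal growth, and the authors' intensities gave 0.86 and 0.88. At least 2-fold higher were then 14 of the 37 in each genotype with median scaling, against 45.4% and 45.8% of all genes. Relative to that shift the 37 genes were again not high, with medians of 0.68 and 0.49 after median scaling and 0.76 and 0.63 in the authors' values. CYC3, the name in the files for cyclin B1;4, CYCD3 and CDC2 (the A;1 kinase) stayed at least 2-fold higher under water stress in both genotypes by both of these scalings, although the kinase then lay less than 2-fold above the median of all genes. Cyclins B1;3, D1;1, D4;1 and D7;1 and kinase B2;2 stayed at least 2-fold lower. After median scaling the highest of these was B1;4 at 2.72 and 2.57, and the lowest were D7;1 at -2.34 and -2.17 and D1;1 at -2.24 and -2.02. Of the genes that stayed past 2-fold, all but B1;3 and D7;1 had normal growth spots dimmer than 95% of empty spots in both channels.

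A further 50 genes of the cell cycle machinery gave a wider view, among them the other KRP genes, kinases that activate CDKs, RBR1 and E2F factors, MYB3R factors, activators of the anaphase-promoting complex, replication licensing proteins and Aurora kinases. None of the 50 was 2-fold apart between genotypes on the 3 arrays, and their medians were -0.037, 0.033 and 0.0072. Under normal growth the highest were ORC1A, of the origin recognition complex, at 0.60, and MYB3R-4, an activator of mitotic genes, at 0.57. The lowest were PCNA2, a sliding clamp of DNA replication, at -0.38 and the helicase subunits MCM2 and MCM4, both at -0.32. Under water stress the highest were CDC20.2, an activator of the anaphase-promoting complex, at 0.86 and MCM7 at 0.63, and the lowest MYB3R-4 at -0.56 and PCNA1 at -0.55. In recovery the highest were MCM7 at 0.41 and ORC1A at 0.30, and the lowest CDKD1;3, a kinase that activates CDKs, at -0.54 and the licensing factor CDT1A at -0.44.

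MYB3R-4 was thus among the highest of the 50 under normal growth and the lowest under water stress, a difference of -1.13. It was the 1 of the 50 (2.0%) past 2-fold downward in that difference, against 0.35% of all genes. None was past 2-fold upward (0.45%). Within wild type, 10 of the 50 were at least 2-fold higher under water stress and 6 lower, and in the transgenic line 9 and 7. Among all genes these shares were 15.4% and 15.0% in wild type and 12.8% and 13.0% in the transgenic line, so the 50 lay near the background. From water stress to recovery 7 were higher in wild type (14.0%, against 3.91%) and 4 in the transgenic line (8.0%, against 3.07%). None was lower in either, where 3.99% and 3.64% of all genes were.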

How the data were processed

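The authors deposited, for each array, mean spot and local background intensity of both channels and the SD of the background, per the file headers, and their own normalized intensity and log2 ratio. The sources used here name no method for that normalization, no scanner and no software, and the labels name Cy dyes where the protocol names Alexa dyes. Per the file headers, locus codes follow TAIR release 7 and TIGR release 5, and a RefSeq table (TAIR10.1) named all 37 genes. No sequences are shown.

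Background was corrected by normexp (offset 50) and ratios by loess within each array (limma 3.58.1, R 4.3.3). Single channels were then scaled by Aquantile. Spots of a probe were averaged, and the brightest probe represented a locus. Python 3.11.15, numpy 2.4.6, pandas 2.3.3 and matplotlib 3.10.9 did the rest. A gene is counted at a log2 value of at least 1 in size. With 1 array per state no single state has a test, and precision is limited by that number. The mean ratio over the 3 arrays was fitted with limma across all genes (Benjamini-Hochberg), a fit added after the data were seen. The normalization and that fit were tested on simulated data. There were 9 comparisons. Alternatives were print-tip loess, median centring or scaling, no or plain background subtraction, the mean of all probes, the authors' values, and spots brighter than 95% of empty ones, with subtraction of the neighbours' median added after the data were seen.

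All 37 members were to be named, and of 50 other cell cycle genes the 2 at either end of the ratio on each array. The members and lists were chosen with earlier results of these data known.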

Additional observations from a re-analysis of the deposited data

Results flagged for a closer look

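The genotype ratio of CYCD6;1 was positive on the normal growth array and negative on the water stress array, with a difference of -1.18 for water stress minus normal growth. The difference was not tested, since each state has 1 array. Under normal growth the spot was dimmer than 95% of empty spots in both channels.

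Spots annotated as empty gave signal. On the normal growth array 92.0% of them lay above local background, on the water stress array 92.5% and on the recovery array 86.7%, and their median log2 ratios were 0.25, 1.76 and 0.95. The part of this signal in the ratios of dim cyclin spots was not tested.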

How the results depend on the processing

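Each array pairs the genotypes, and the fit of the mean ratio over the 3 arrays uses that pairing. No paired analysis between states was possible because each state has 1 array. That fit (limma) called 0 higher members and 0 lower ones. Left-out arrays gave 0 to 0 higher and 0 to 1 lower (CYCB3;1), and median centring gave 4 higher and 1 lower (CYCB3;1 again), beside 15.5% and 3.7% of all genes. Of 64 alternatives to a count of members past 2-fold that was above 0, 45 stayed within 1.5 times and 19 did not. Where the count was 0, 53 alternatives also gave 0, which says little of stability, and 3 did not. Print-tip loess left 1 lower member under water stress (0.188% of all genes) and 0 in recovery (0.208%). For the difference of ratios between water stress and normal growth it left 0 (0.231%). Subtraction of the neighbours' median left 0 in recovery (0.208% of all genes). Median centring gave 1 higher and 7 lower members under water stress (7.06% and 13.8% of all genes), 2 lower in recovery (1.48%), and 6 and 2 lower for the differences of ratios of water stress and of recovery from normal growth (11.3% and 1.18%). Plain subtraction gave 2 lower in recovery (1.27% of all genes) and 2 for each difference (1.4% and 1.14%). Among members brighter than 95% of empty spots, of which 14 were left, 0 had a 2-fold difference of ratios under water stress. Of all genes that bright, 0.0161% were higher and 0.233% lower.

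For water stress over normal growth, median scaling gave 14 higher in each genotype (37.8% of the list, against 45.4% and 45.8% of all genes). It gave 5 lower in AhNF-YC-OE (13.5%, against 8.24%). The authors' values gave 16 higher in wild type (43.2%, against 45.1% of all genes). In AhNF-YC-OE they gave 15 higher (40.5%, against 45.2%) and 5 lower (13.5%, against 8.47%). The brightness filter left 4 of 22 members lower in AhNF-YC-OE (18.2%, against 12.6%). For recovery over water stress in wild type the authors' values gave 1 higher (2.7%, against 2.39%) and 5 lower (13.5%, against 10.3%). In AhNF-YC-OE, CYCA2;3 changed sign under water stress in the authors' values (0.43), and the B1;2 cyclin did with median scaling (0.090) and in the authors' values (0.20). Median scaling moves all genes up, as given above, and the other causes were not tested.

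The precision is limited by 1 array per state, by 1 spot for 35 of the 37 genes, and by empty spots as bright as many of these genes. A technical spread between control spots leaves out the spread between plants.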

Other observations

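Genes of replication and mitosis outside the cyclin and kinase families also differed between arrays in both genotypes, and the ones named here were chosen after their values were seen. The 3 Aurora kinases, which act on mitotic chromosomes, were more than 2-fold higher under water stress than under normal growth. Of all genes, 15.4% in wild type and 12.8% in the transgenic line were at least 2-fold higher there. AUR1 was higher by 1.35 in wild type and 1.43 in the transgenic line, AUR2 by 2.13 and 1.96, and AUR3 by 1.10 and 1.23. Of the 6 MCM genes, which encode the replicative helicase, MCM2 changed by -2.08 and -1.74 and MCM4 by -2.48 and -1.94. The MCM4 spot was dimmer than 95% of empty spots in both channels under water stress, so its changes rest on a value below that level. MCM6 changed by -1.01 and -0.43. In recovery MCM2 was higher again by 1.28 and 1.22, MCM4 by 1.76 and 1.27, and MCM6 by 1.30 and 1.05. MCM3, MCM5 and MCM7 lay between -0.76 and 0.39 in the first change and between -0.20 and 0.07 in the second. The spots annotated to the 6 subunits thus did not change alike, and spots annotated to 1 transcript hardly correlated in level either. Whether the subunits themselves differ was not tested. These values come from 1 spot per gene and 1 array per state, with the mean intensity of both channels set to the same distribution on all arrays.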
